A study of Mus musculus with 24 samples.

Results

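The nuclear-encoded subunits of the respiratory chain were examined in whole mouse kidneys. Members were the genes whose symbols begin with Nduf followed by a, b, c, s or v and a number, the genes Sdha to Sdhd, the Uqcr genes, Cyc1, the Cox4 to Cox8 genes with an a, b or c suffix, and the Atp5 genes, leaving out symbols that contain -ps. Of 54532 genes in the count table, 88 matched, and 80 had a mean of at least 1 CPM (a gene's counts scaled to a common library total) over all libraries. Complex I had 35 of these members, complex II had 4, complex III had 9, complex IV had 15 and complex V had 17. The members below the limit were Cox6a2, Cox6c2, Cox7b2, Cox8c, Ndufa11b, Ndufb4c, Ndufs6b and a read-through gene also named Atp5o.

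Whole kidneys of C57BL/6 mice aged 18 days (a C57BL/6 J background in the study's methods) gave 24 libraries, each from a separate mouse. All mice carried a Pkd1 allele with the RC missense mutation, which lowers functional polycystin-1. RC/+ mice (n = 3) carried it opposite a floxed, unrecombined allele without Cre, and RC/- mice (n = 5) carried it opposite the floxed allele together with Ksp-Cre, which is active in tubular epithelium but not in every kidney cell. In the D18 and D53 lines the RC allele also lacked its miR-17 binding motif after CRISPR/Cas9 editing. The D18 line came from founder 3 (RC/+ D18, n = 3; RC/- D18, n = 5) and the D53 line from founder 2 (RC/+ D53, n = 3; RC/- D53, n = 5), so each line stands for 1 edited founder. The labels call all RC/+ groups control and all RC/- groups cystic. Ksp-Cre was present in every cystic and no control mouse, so its presence and the cystic genotype cannot be told apart. The comparisons asked how cystic kidneys differed from controls, and whether that difference changed when the motif was deleted.

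The respiratory chain passes electrons from NADH (complex I) and succinate (complex II) through complex III to oxygen at complex IV, and the resulting proton gradient drives ATP synthesis by complex V. Nuclear genes encode all of complex II and most subunits of the other complexes, while the mitochondrial genome encodes the remainder. In the kidney, proximal tubule and thick ascending limb cells hold many mitochondria, which power solute reabsorption.

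Upstream sequences of members whose levels behaved differently in RC/- kidneys are shown because promoters of these genes are known for sites of the factors NRF1, ETS family members, YY1 and ESRRA. Each sequence holds the 250 bases before the annotated start, from RefSeq on GRCm38.p6, and capitals mark a searched motif. Sdhb lay at chr4:140961021-140961270 on the plus strand, Atp5g2 at chr15:102671048-102671297 on the minus strand, Ndufa11 at chr17:56717512-56717761 on the plus strand, Atp5g3 at chr2:73911327-73911576 on the minus strand and Cox8b at chr7:140900447-140900696 on the minus strand.
Sdhb: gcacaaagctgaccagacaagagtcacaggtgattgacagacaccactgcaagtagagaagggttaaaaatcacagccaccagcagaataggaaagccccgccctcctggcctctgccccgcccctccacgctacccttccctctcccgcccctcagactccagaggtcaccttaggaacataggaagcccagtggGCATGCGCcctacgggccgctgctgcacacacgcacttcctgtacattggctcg
Atp5g2: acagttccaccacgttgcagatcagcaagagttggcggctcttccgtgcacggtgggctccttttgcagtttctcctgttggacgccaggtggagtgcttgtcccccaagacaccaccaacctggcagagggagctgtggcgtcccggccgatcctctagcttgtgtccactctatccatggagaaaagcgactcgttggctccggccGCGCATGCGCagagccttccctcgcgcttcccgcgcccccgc
Ndufa11: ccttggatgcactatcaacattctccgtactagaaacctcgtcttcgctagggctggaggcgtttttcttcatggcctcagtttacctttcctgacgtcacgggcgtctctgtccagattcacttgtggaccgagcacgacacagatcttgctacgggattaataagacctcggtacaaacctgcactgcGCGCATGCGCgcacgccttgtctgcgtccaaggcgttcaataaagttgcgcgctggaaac
Atp5g3: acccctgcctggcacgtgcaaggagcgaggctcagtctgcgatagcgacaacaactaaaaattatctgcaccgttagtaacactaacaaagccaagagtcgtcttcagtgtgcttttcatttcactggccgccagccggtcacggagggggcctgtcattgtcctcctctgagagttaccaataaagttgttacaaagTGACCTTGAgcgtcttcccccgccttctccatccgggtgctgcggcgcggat
Cox8b: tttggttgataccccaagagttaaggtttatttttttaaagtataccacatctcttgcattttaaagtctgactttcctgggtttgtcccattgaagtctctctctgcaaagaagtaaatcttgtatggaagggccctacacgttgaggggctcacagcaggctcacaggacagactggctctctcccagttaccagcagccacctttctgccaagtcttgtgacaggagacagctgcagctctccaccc
The NRF1 motif GCGCATGC stood 54 bases before the start of Sdhb on the opposite strand. In Atp5g2 and Ndufa11 it occurred on both strands as overlapping matches, from 42 and 60 bases before the start. The ESRRA motif TCAAGGTCA stood 52 bases before the start of Atp5g3 on the opposite strand, and Cox8b held none of the motifs.

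Promoter windows running from 250 bases before to 50 bases after the start were present for 67 of the 80 members. The NRF1 motif was in 10 of these 67 (14.9%), against 3.05% of 27025 genes with a window. The YY1 motif AANATGGCG was in 10 (14.9%, against 2.76%), the ETS motif CCGGAAGT in 5 (7.46%, against 4.31%) and the ESRRA motif in 2 (2.99%, against 0.466%), each searched on both strands. At least 1 motif was present in 26 of 67 members and 9.85% of all genes. The median difference between RC/- and RC/+ kidneys was -0.42 on the log2 scale in members with the NRF1 motif and -0.40 in members without it. A match is only a run of letters. CpG dinucleotides before the start numbered 14 in the median member and 6 in the median gene. Cox8b had 1, the fewest of any member with a window, and Cox7a1 had 4. Low counts were not limited to such isoforms: Ndufc2 of complex I also had 4, and Cox7b and Uqcr10 had 5.

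The libraries held 20379982 to 30837488 counts, and 22570 genes were tested. Pkd1 itself was read at 49.9 to 51.5 CPM in RC/+, 52.0 to 65.2 CPM in RC/-, and 38.4 to 71.4 CPM across both edited cystic groups, and no comparison called it by limma (lowest adjusted p = 0.173). These counts do not separate alleles and do not check the floxed deletion. Replicates 20 to 27 stood apart: 12 skeletal muscle markers summed to 185 to 242 CPM there, against 10.6 to 25.2 CPM elsewhere. They comprise every RC/- D53 kidney and the last 3 of the RC/- D18 group. Of the 12 muscle markers, Pvalb is also on the list of thick ascending limb and distal convoluted tubule markers used below. All 20 proximal tubule markers of the kidney were detected.

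The members together took 2.74% ± 0.0678 of all counts in RC/+ kidneys (SD, n = 3) and 1.92% ± 0.147 in RC/- kidneys (n = 5). In CPM, the sum was 27681, 26572 and 27804 in the RC/+ libraries and 19736, 20600, 19883, 18732 and 16812 in the RC/- libraries. No other library in the series fell below 23467. The RC/- D18 libraries held 24949, 25270, 25088, 25548 and 25755, and the RC/- D53 libraries 26073, 24547, 23467, 25800 and 26595. The means of the edited cystic groups lay between those of RC/- and RC/+, at 92.6% and 92.5% of the RC/+ mean. The RC/- D18 range overlapped that of RC/+ D18 (25404 to 28709), whereas every RC/- D53 library was below the lowest RC/+ D53 library (26706 to 27232). That overlap rested on RC/+ D18 replicate 9 alone, at 25404, and the highest RC/- D53 library, at 26595, was just below 26706. Against the unedited RC/+ range of 26572 to 27804 the order was reversed. Every RC/- D18 library was below it, whereas the highest RC/- D53 library lay just inside it.

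The summed level differed by complex. In RC/- kidneys complex II, which joins the citric acid cycle to the chain, was at 61.5% of its RC/+ mean. Complex V was at 67.3%, complex III at 68.9%, complex I at 74.3% and complex IV at 76.2%. Abundant members weigh most in these sums, and the median log2 difference over members gave another order. It was -0.71 in complex II, -0.43 in complex IV, -0.40 in complexes V and III, and -0.37 in complex I. Complex II was the lowest of the complexes, relative to RC/+, in 5 of 5 RC/- libraries. It also took less of the member total there, 6.75% to 7.17% against 7.83% to 7.99% in RC/+, and complex IV took more, 16.998% to 18.476% against 15.872% to 16.569%. In RC/- D18 kidneys the complexes lay close together, from 92.0% (complex IV) to 93.5% (complex I). In RC/- D53 kidneys complex II was at 88.8% and the others were at 92.5% to 93.3%. For comparison, the 13 protein genes of the mitochondrial genome summed to 58.94% of the RC/+ mean in the RC/- group, 94.97% in the D18 cystic group and 87.54% in the D53 cystic group.

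**Figure D1:**
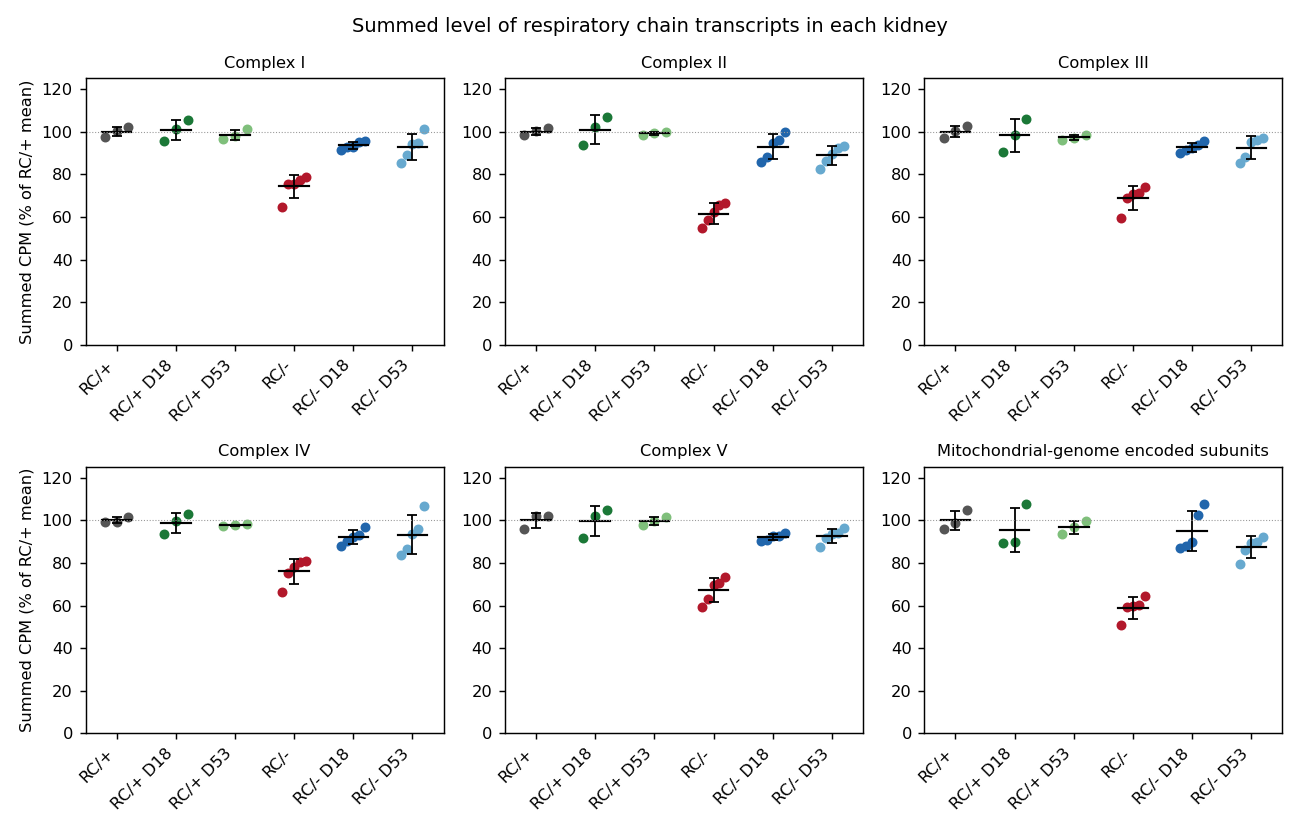
Summed CPM of each complex in every kidney, as percent of the RC/+ mean, with the mitochondrial-genome encoded subunits as the last panel. Points are libraries, horizontal lines are group means and bars are SD. RC/- libraries lie lowest in each panel, with complex II at a mean of 61.5% and complex IV at 76.2%.

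In RC/- against RC/+ kidneys 63 of 80 members fell and 0 rose by limma at an adjusted p below 0.05. Among all genes tested, 12.2% were called lower. The median log2 difference over members was -0.41, against 0.14 over all genes, a gap of -0.55. TMM scaling factors moved the all-gene median to 0.01 and the members' median to -0.55, and 72 members fell with them. In 64 members every RC/- library was below every RC/+ library, against 11.6% of all genes. The members that fell were 26 of 35 in complex I, 4 of 4 in complex II, 9 of 9 in complex III, 10 of 15 in complex IV and 14 of 17 in complex V. Bulk tissue cannot tell apart fewer cells of a type and less RNA per cell.

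Subunits of the redox or F1 catalytic core fell together. All 14 were called, with log2 differences from -0.88 to -0.50 and a median of -0.62. The other 66 members had a median of -0.37, and 49 of them fell. Most core subunits are also among the 29 members with a principal transcript of 1000 bases or more. Of those 29, 27 fell, with a median of -0.59, and core role and transcript length were not tested apart. The core members include Ndufs1, Ndufs3, Ndufs7, Ndufs8, Ndufv1 and Ndufv2 of complex I, Sdha and Sdhb of complex II, Cyc1 and Uqcrfs1 of complex III, and Atp5a1, Atp5b and Atp5c1 of complex V. The catalytic core of complex IV is encoded in the mitochondrial genome, so that complex has no member in this group.

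In complex I, Ndufs1, the large iron-sulfur subunit of the electron-input module, was lowest. It was at 289, 254 and 298 CPM in RC/+ and 169, 169, 149.9, 138 and 136 CPM in RC/- kidneys. The edited cystic kidneys held 244, 223, 269, 271 and 280.1 CPM (RC/- D18) and 254, 246, 226, 247 and 218 CPM (RC/- D53). RC/- libraries were below all others. The RC/- D18 libraries overlapped RC/+, whereas the highest RC/- D53 library was just below the lowest RC/+ library. The RC/- minus RC/+ difference was -0.88 on the log2 scale (SE 0.086, limma adjusted p = 2.2e-08). Ndufa9, an accessory subunit, was next at -0.64 (SE 0.065, limma adjusted p = 3.9e-08). Ndufv1, which holds the flavin, fell by 0.59, and Ndufv2, Ndufs7, Ndufs3 and Ndufs8 fell by 0.53, 0.52, 0.51 and 0.50.

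Not all of complex I moved. Ndufa11, an accessory membrane subunit, was at 30.1, 31.8 and 32.8 CPM in RC/+ and 33.7, 35.1, 32.1, 30.1 and 25.2 CPM in RC/- kidneys. Those groups overlapped, and its difference of -0.02 (SE 0.12) did not pass the test (limma adjusted p = 0.91). All 9 uncalled members of complex I were accessory subunits, with log2 values from -0.25 to -0.02. Of the 28 accessory subunits 19 fell, with a median over the 28 of -0.32. Of the exon bases of Ndufb6, 39% overlap Smim27 on the opposite strand, and strand handling of the counts was not given in the sources used here.

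All of complex II fell. Sdhb, its iron-sulfur subunit, was at 475, 470.3 and 479.8 CPM in RC/+ and 283, 286, 268, 260.2 and 223 CPM in RC/- kidneys. It reached 394, 404, 424, 449.9 and 456 CPM in RC/- D18 and 445, 422, 377, 425 and 410.0 CPM in RC/- D53 kidneys. Every RC/- D18 and RC/- D53 library was above every RC/- library and below every RC/+ library. Its difference was -0.85 (SE 0.075, limma adjusted p = 4.8e-09). Sdha, the flavoprotein that oxidises succinate, fell by 0.72, the membrane anchor Sdhd fell by 0.70 and the other anchor, Sdhc, fell by 0.51, the smallest change in the complex.

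In complex III, Uqcrc2, a core protein of the matrix arm, was lowest; 19.8% of its exon bases overlap Pdzd9 on the opposite strand. It was at 428, 409 and 439 CPM in RC/+ and 258, 255, 241, 244 and 237 CPM in RC/- kidneys, a narrow range well below the controls. Its difference was -0.78 (SE 0.069, limma adjusted p = 5.3e-09). Uqcrfs1, the Rieske iron-sulfur protein, fell by 0.68 and Cyc1, cytochrome c1, fell by 0.63. The other core protein, Uqcrc1, fell by 0.60. The 5 small subunits fell by less, from -0.40 to -0.25, with Uqcrh, the hinge protein, least.

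In complex IV the 10 widely expressed subunits all fell, with log2 differences from -0.54 to -0.28. Cox6a1 was at 857.6, 828.6 and 818.2 CPM in RC/+ and 543, 626, 649, 599.6 and 499.9 CPM in RC/- kidneys, without overlap, and fell by 0.52 (SE 0.087, limma adjusted p = 3.6e-05). Ndufa4, now placed in complex IV, fell by 0.46, Cox7a2 fell by 0.45, Cox8a fell by 0.34 and Cox6b1 fell by 0.28. None of the 5 tissue isoforms or paralogs was called, although their values were spread widely and the difference between the classes was not tested. Cox8b was at -2.20 (SE 1.36) and Cox7a1 at -0.63 (SE 0.33), both below every widely expressed subunit but with large errors. Cox7a2l was at -0.03, the testis-type isoform Cox6b2 at -0.01, and Ndufa4l2, a hypoxia-responsive paralog of Ndufa4, at 0.21. Cox7a2l was classed as a paralog although its mean of 208 CPM was above that of the widely expressed Cox5a (93.7 CPM).

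In complex V, Atp5b, the catalytic beta subunit, had the highest level per length of any member, 1692 CPM per kilobase. It was at 3781, 3478 and 3829 CPM in RC/+ and 2501, 2531, 2361, 2134 and 2121 CPM in RC/- kidneys. These ranges were far apart, and it fell by 0.67 (SE 0.084, limma adjusted p = 8.4e-07). The alpha subunit Atp5a1 fell by 0.68 and the gamma subunit Atp5c1, the rotating shaft, fell by 0.56.

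The c-ring of ATP synthase is made of 1 protein encoded by a set of paralogs. Atp5g1 was at 445, 414 and 434 CPM in RC/+ and 296, 328, 296, 242 and 225 CPM in RC/- kidneys, and it fell by 0.65 (SE 0.097, limma adjusted p = 9.9e-06). Atp5g3 fell by 0.56 (SE 0.084, limma adjusted p = 9.4e-06). Atp5g2 was at 157, 152 and 154 CPM in RC/+ and 136, 155, 158, 154 and 148 CPM in RC/- kidneys. The groups overlapped for Atp5g2, at a difference of -0.04 (SE 0.062, limma adjusted p = 0.63); with TMM factors it was called lower, at -0.18. Per length, Atp5g2 made 15.3% ± 0.277 of c-ring transcript in RC/+ (SD, n = 3) and 20.7% ± 2.23 in RC/- kidneys (n = 5), where the range of 18.4% to 23.4% lay above that of RC/+ (15.01% to 15.56%). It was 14.9% ± 0.602 in RC/- D18 and 15.3% ± 0.446 in RC/- D53 kidneys. For Atp5g2, 34.7% of 100-base windows of the transcript also occur in transcripts of other genes, which can change its counts.

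**Figure D2:**
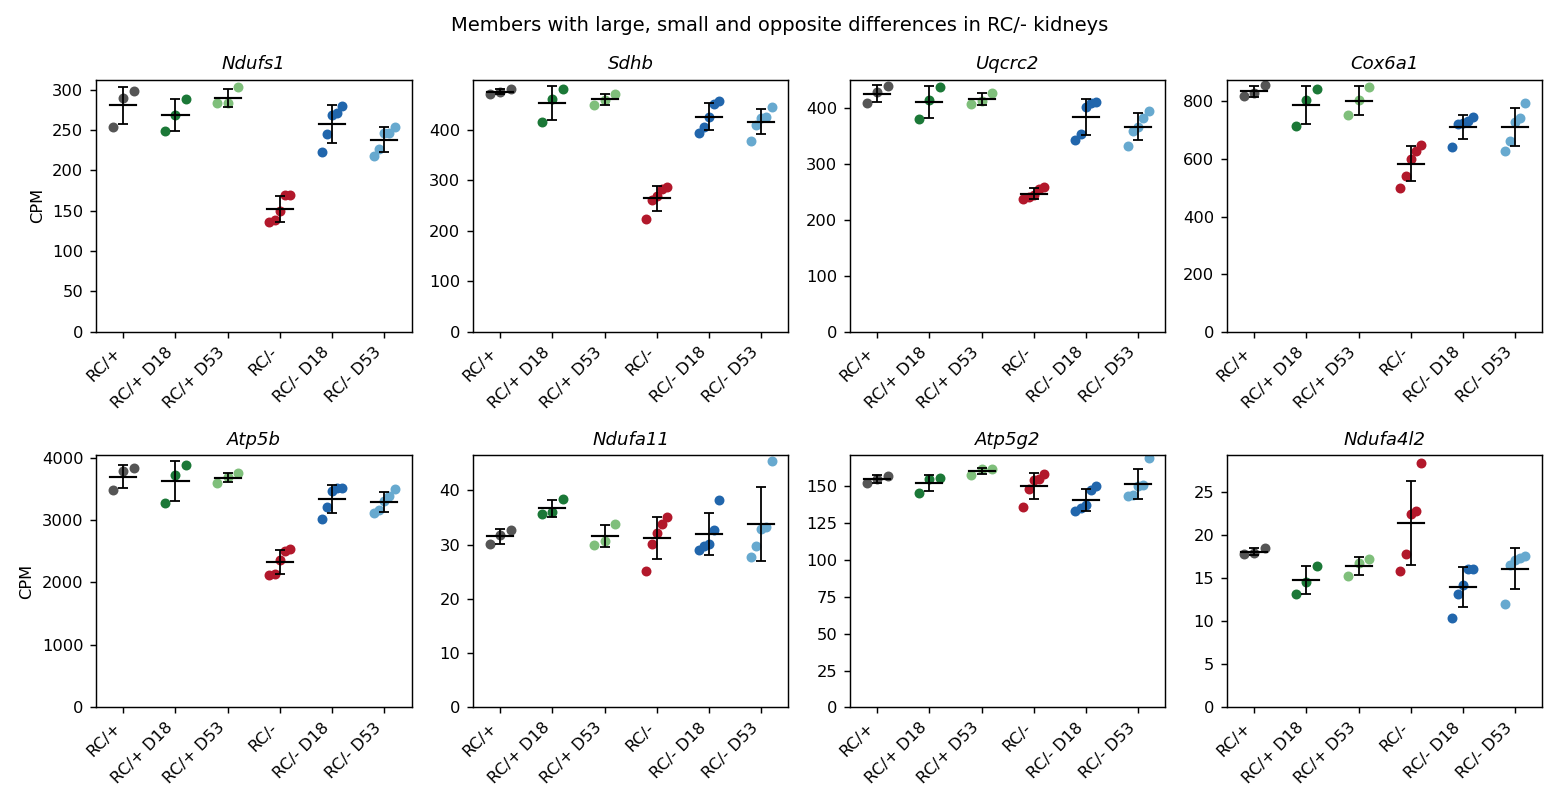
CPM of 8 members in every kidney, axes from 0. Points are libraries, horizontal lines are means and bars are SD. Ndufs1, Sdhb, Uqcrc2, Cox6a1 and Atp5b are low in all 5 RC/- libraries, while Ndufa11 and Atp5g2 overlap between RC/- and RC/+, and Ndufa4l2 does not share the direction.

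Edited and unedited cystic kidneys were compared directly. RC/- D18 and RC/- D53 were each set against the same RC/- libraries, which also serve in the comparison with RC/+, so the directions of these comparisons are not independent. In RC/- D18 against RC/- kidneys 63 of 80 members rose and 1 fell, against 14.3% of all genes called higher and 26.9% called lower. The members' median was 0.30, against -0.10 over all genes, and in 55 members all RC/- D18 libraries were above all RC/- libraries, against 9.01% of genes. In RC/- D53 against RC/- kidneys 63 rose and 1 fell, against 11.3% called higher and 18.9% called lower. Here the median was 0.33, against -0.08, and 49 members did not overlap, against 6.98% of genes. The lean of all genes to lower calls depended on the scaling: with TMM factors 19.7% were higher and 19.5% lower for D18, and 14.97% and 13.1% for D53, while 71 and 69 members rose.

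With membership in replicates 20 to 27, the libraries with skeletal muscle transcripts, as a covariate, 34 members rose in RC/- D53 against RC/- kidneys, while 3.81% of all genes were called higher in that fit. The members' median was 0.36 and their median SE rose from 0.069 to 0.12. Ndufs1 was at 0.42 and Sdhb at 0.51 in that fit, both still called. All 5 RC/- D53 libraries are among those replicates, and the part of that material in the result was not tested. Only the RC/- D18 group is split by the covariate. Its effect was therefore estimated from RC/- D18 replicates 18 and 19 against 20 to 22 and carried over to RC/- D53.

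The core subunits again moved together, and all 14 rose in both lines. Ndufs1 rose by 0.76 in RC/- D18 (SE 0.075, limma adjusted p = 2.3e-08) and by 0.65 in RC/- D53 (SE 0.075, limma adjusted p = 6.2e-07). Sdhb rose by 0.69 and 0.66, Uqcrc2 by 0.63 and 0.57, and Sdha by 0.66 and 0.52. Sdhd rose by 0.51 and 0.55, and Atp5g1 by 0.52 and 0.56. By complex, 28 of 35 members of complex I, 4 of 4, 9 of 9, 10 of 15 and 12 of 17 of complexes II to V rose in RC/- D18. In RC/- D53 the counts were 26 of 35, 4 of 4, 9 of 9, 10 of 15 and 14 of 17.

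The member that fell in both was Ndufa4l2. It was at 22.8, 22.4, 15.8, 28.4 and 17.8 CPM in RC/-, 16.03, 14.23, 16.05, 13.16 and 10.41 CPM in RC/- D18 and 17.64, 11.97, 17.41, 16.50 and 17.18 CPM in RC/- D53 kidneys. Both pairs of groups overlapped. It fell by 0.60 in RC/- D18 (SE 0.14, limma adjusted p = 0.0011) and by 0.39 in RC/- D53 (SE 0.14, limma adjusted p = 0.034), the latter lost under several settings. Per length it made 4.13% ± 0.969 of Ndufa4 plus Ndufa4l2 in RC/- (SD, n = 5) and 2.58% ± 0.132 in RC/+ kidneys (n = 3).

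Within each edited line, no member was called between cystic and control kidneys by limma. In RC/- D18 against RC/+ D18 kidneys 0 members were called by limma, and 7 were lower and 0 higher at an unadjusted p below 0.05. Over all genes 0.266% were called. The median member difference was -0.10, and in 7 members the libraries did not overlap and were lower, against 1.91% of genes. In RC/- D53 against RC/+ D53 kidneys 0 were called, 8 had a lower value at an unadjusted p below 0.05, and 2.6% of all genes were called. There the median was -0.06, and 13 members did not overlap and were lower, against 3.45% of genes. These 13 included 8 of the 14 core subunits, among them Ndufs1, Ndufv1, Sdha, Sdhb, Cyc1, Atp5a1 and Atp5b. Ndufs1 in RC/- D53 was at -0.29 (SE 0.086, limma adjusted p = 0.084), and DESeq2 called that member alone. Other genes did differ in the D53 line: 10 of 11 skeletal muscle markers were higher, with a median of 4.61, as were 8 of 15 macrophage markers and 7 of 14 collecting duct markers. The muscle markers summed to 185 to 242 CPM in RC/- D53 and 23.2 to 25.2 CPM in RC/+ D53 kidneys, and the macrophage markers to 502 to 802 and 369 to 425 CPM. Every cystic and no control D53 library is among replicates 20 to 27, so that set and the cystic genotype cannot be told apart within the line. In the D18 line 2 of 14 collecting duct markers were higher, and 0 of 15 macrophage and 0 of 11 muscle markers were called. The median muscle marker difference there was nevertheless 2.83, because the RC/- D18 group was split. The muscle markers summed to 203 to 235 CPM in RC/- D18 replicates 20 to 22. They summed to 21.25 and 23.96 CPM in replicates 18 and 19, and to 14.7 to 22.98 CPM in RC/+ D18 kidneys. The 0 calls therefore do not show that muscle transcripts were absent from RC/- D18 kidneys.

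**Figure D3:**
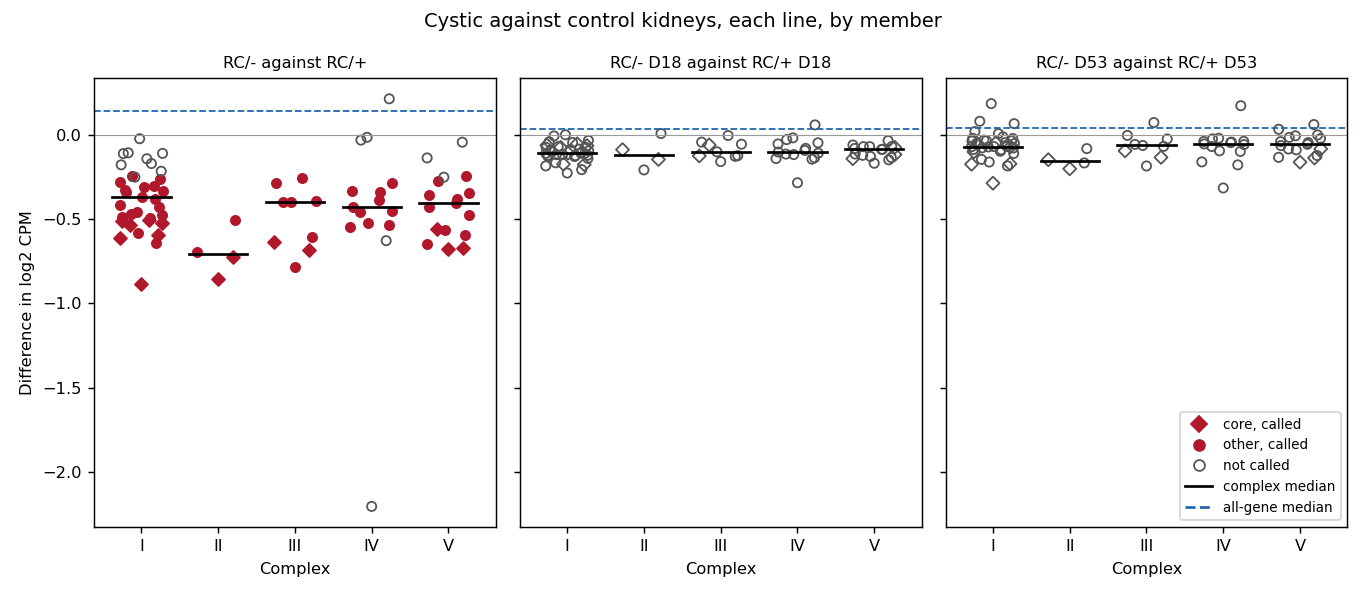
Difference in log2 CPM between cystic and control kidneys for each member, by complex, in the unedited, D18 and D53 lines. Diamonds are redox or F1 catalytic core subunits, filled symbols passed an adjusted p below 0.05, black lines are complex medians and the dashed line is the median of all genes. The unedited line has 63 filled symbols and the edited lines have 0.

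The difference between lines was tested itself. The cystic difference in the D18 line minus that in the unedited line was higher in 37 of 80 members and lower in 0, against 6.31% of all genes called higher. For the D53 line the count was 41 and 0, against 4.73%. Both share the RC/- and RC/+ libraries. All 14 core subunits passed in each. Ndufs1 differed by 0.82 (SE 0.12, limma adjusted p = 6.7e-05) for D18 and by 0.60 (SE 0.12, limma adjusted p = 0.0025) for D53. Sdhb differed by 0.77 and 0.71, Uqcrc2 by 0.68 and 0.60, Uqcrc1 by 0.60 and 0.58, Uqcrfs1 by 0.62 and 0.55, and Atp5g3 by 0.48 and 0.56. With replicates 20 to 27 as a covariate the D53 count was 7, against 0.806% of all genes called higher, and the D18 count was 30, against 4.31%. The members' medians in that fit were 0.39 and 0.35, against 0.35 and 0.30 without the covariate, and the median SE for D53 rose from 0.11 to 0.15.

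Deleting the motif without cysts changed no member detectably. RC/+ D18 against RC/+ kidneys gave 0 called members, with 0 at an unadjusted p below 0.05, and 0.00443% of all genes were called by limma. RC/+ D53 against RC/+ kidneys gave 0 called members, 0 at an unadjusted p below 0.05, and 0% of all genes, with 525 genes at an unadjusted p below 0.05. The median member differences were 0.00 and -0.02. The edited cystic groups did not differ from each other either: RC/- D53 against RC/- D18 kidneys gave 0 called members, 0 at an unadjusted p below 0.05, a median of 0.02 and 0.266% of all genes called. edgeR and DESeq2 also called 0 members in these 3 comparisons.

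The transcript isoforms typical of muscle and brown fat, Cox8b and Cox7a1, varied by kidney more than by group. Cox8b was at 13.7, 23.2 and 31.8 CPM in RC/+, 17.8, 2.65 and 22.003 CPM in RC/+ D18 and 16.9, 8.84 and 16.8 CPM in RC/+ D53 kidneys. It was at 24.9, 0.507, 0.318, 33.5 and 11.8 CPM in RC/-, 10.3, 0.288, 43.8, 14.7 and 17.1 CPM in RC/- D18 and 13.4, 3.87, 3.08, 24.4 and 38.9 CPM in RC/- D53 kidneys. High and low libraries occurred side by side in each cystic group, and its log2 difference between RC/- and RC/+ of -2.20 had an SE of 1.36 (limma adjusted p = 0.22). Ucp1, the uncoupling protein of brown fat, was at 159, 0.845, 0.874, 107 and 13.8 CPM in the RC/- libraries, given in the same replicate order, and replicates 14 and 15 were lowest for both genes. The 6 fat markers Ucp1, Cidea, Elovl3, Adipoq, Fabp4 and Plin1 summed to 355 to 659 CPM in RC/+ and 113 to 696 CPM in RC/- kidneys, and none was at 0 throughout. In RC/- replicates 14 and 15 Ucp1, Cidea and Adipoq were each at 0.318 to 1.86 CPM. Nearly all of the sum there therefore came from the other markers, and the sum does not track those genes.

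Over the 24 libraries Cox8b followed the mean log2 CPM of these 6 markers, with Pearson's r = 0.986 and Spearman's rho = 0.953 (permutation p = 1e-05 for each, the smallest that 100000 resamples can give; adjusted over 4 relations, 2e-05). Without the 2 libraries farthest from the median of the markers, r was 0.978. Cox7a1 gave r = 0.828 and rho = 0.89 (permutation p = 1e-05 for each, the smallest possible; adjusted, 2e-05), and r = 0.83 without those libraries. The widely expressed partners did not follow: Cox8a gave r = 0.0179 and rho = -0.033 (permutation p = 0.93 and 0.88; adjusted, 0.93 and 0.88), and r = -0.01 without 2 libraries. Cox7a2 gave r = 0.0962 and rho = 0.0339 (permutation p = 0.66 and 0.88; adjusted, 0.88 and 0.88), and r = 0.0651 without them. Within replicates 20 to 27 (n = 8) and 4 to 19 (n = 16), r for Cox8b was 0.991 and 0.984, and r for Cox7a1 was 0.921 and 0.824. These relations were examined after the values had been seen. Per length, Cox8a made 93.8% of Cox8 transcript and Cox7a2 made 83.8% of Cox7a1 plus Cox7a2 in RC/+ kidneys.

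**Figure D4:**
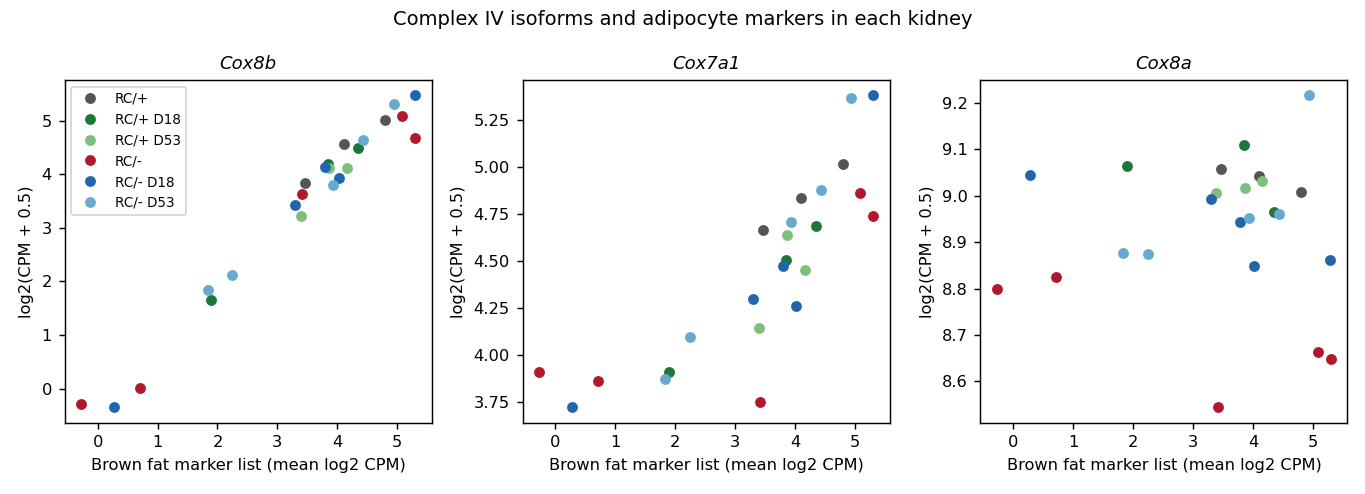
log2(CPM + 0.5) of Cox8b, Cox7a1 and Cox8a against the mean log2 CPM of 6 fat markers, 1 point per kidney, coloured by group. Cox8b lies near a line (r = 0.986) in libraries of all 6 groups, whereas Cox8a shows no such relation (r = 0.0179).

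The members' differences also varied with transcript length and level. Over the 80 members the RC/- minus RC/+ difference had Spearman's rho of -0.45 and Pearson's r of -0.22 with transcript length (log2), and -0.56 and -0.21 with mean CPM (log2), across genes that are not independent replicates and share the same libraries. Of 51 members with a principal transcript under 1000 bases, 36 fell, with a median of -0.37. Of 29 longer members, 27 fell, with a median of -0.59. Among all protein-coding genes tested the medians were 0.13 and 0.16, and 15.9% and 14.2% were called lower, for the same length classes.

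**Figure D5:**
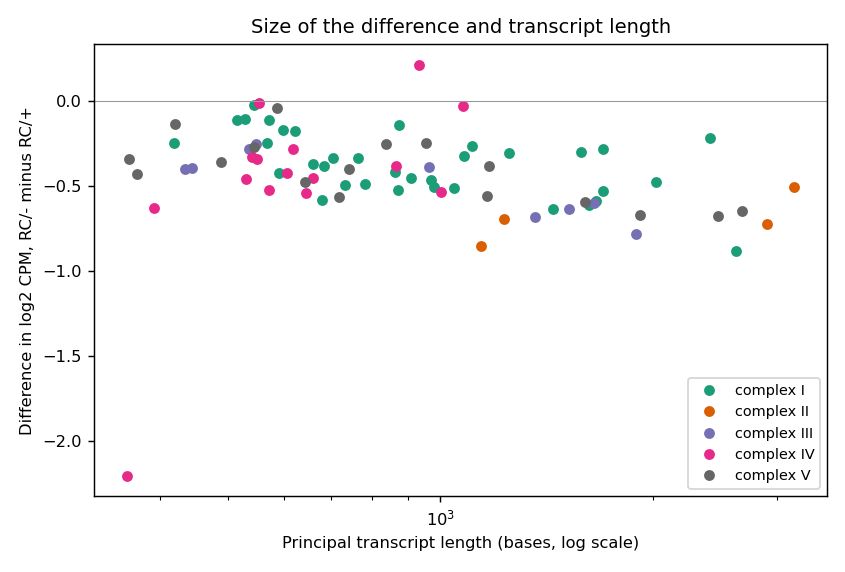
RC/- minus RC/+ difference in log2 CPM against principal transcript length on a log scale, 1 point per member, coloured by complex. The 29 members of 1000 bases or more have a median of -0.59 and the 51 shorter ones -0.37; the lowest point is Cox8b.

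Other genes of the same pathway were counted in the same comparison, in which 25.5% of all genes were called higher and 12.2% lower. Examples below were picked after their values were seen. Of 44 assembly factors tested, 19 fell and 1 rose in RC/- against RC/+ kidneys, with a median of -0.21. Ecsit, a complex I assembly factor, was at -0.67, Coa6, which helps assemble complex IV, at -0.66, and Uqcc2, a complex III factor, rose by 0.31. Of 5 subunits and partners outside the symbol rule, 3 fell: Cycs, the mobile electron carrier, by 0.51, Cox4i1 by 0.42 and Ndufab1 by 0.36. Citric acid cycle enzymes fell in 12 of 13, with a median of -0.66. Import and outer membrane genes fell in 8 of 13, and mitochondrial ribosomal proteins fell in 19 and rose in 3 of 77, with a median of -0.12. Of 13 mitochondrial-genome encoded subunits 12 fell, with a median of -0.75.

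Against the same RC/- libraries, where 14.3% and 11.3% of all genes were called higher and 26.9% and 18.9% lower for D18 and D53, citric acid cycle enzymes rose in 13 of 13 in the D18 cystic group and 12 of 13 in the D53 cystic group. Assembly factors rose in 18 and fell in 5 of 44 for D18, and rose in 16 and fell in 1 for D53. The mitochondrial-genome encoded subunits rose in 12 and 11 of 13. Import genes rose in 5 and fell in 1 of 13 for D18 and rose in 7 for D53. Mitochondrial ribosomal proteins rose in 9 and fell in 10 of 77 for D18, and rose in 18 and fell in 3 for D53. The D18 counts of ribosomal proteins are no larger a share than those over all genes.

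Among 10 regulators 4 fell and 1 rose in RC/- against RC/+ kidneys, where 12.2% of all genes were called lower and 25.5% higher. Ppargc1a, a coactivator of mitochondrial genes, fell by 0.77 (SE 0.14, limma adjusted p = 9.1e-05), and Ppargc1b fell by 0.61. Tfam, which packages mitochondrial DNA, fell by 0.44, and Esrra fell by 0.42. Nrf1 rose by 0.41 (SE 0.087, limma adjusted p = 0.00052). In RC/- D18 against RC/- kidneys 6 of the 10 rose and 1 fell, against 14.3% and 26.9% of all genes. In RC/- D53 4 rose and 1 fell, against 11.3% and 18.9%. Each single call against the majority was no larger a share than over all genes. Ppargc1a was higher by 0.86 and 0.75, and Nrf1 was at -0.37 and -0.24.

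Markers of cell types also differed between RC/- and RC/+ kidneys, in the members' direction for some types and against it for others. Over all genes 25.5% were called higher and 12.2% lower in this comparison. The 20 proximal tubule markers summed to 24838 to 25957 CPM in RC/+ and 6842 to 12493 CPM in RC/- kidneys, and 18 of 20 fell, with a median of -1.39. Markers of the thick ascending limb and distal convoluted tubule fell in 11 of 14 and rose in 2. Of 14 collecting duct markers 9 rose and 3 fell, and 15 of 15 macrophage markers rose, from 385 to 416 CPM in sum to 780.1 to 1518 CPM. Skeletal muscle markers, among them Pvalb, which is also on the distal tubule list, fell in 1 of 11 tested. That 1 fall and the 2 rises among thick ascending limb and distal markers were no larger shares than those over all genes. None of the 6 fat markers was called. No marker of these lists was at 0 in all libraries. Within the RC/- group, replicates 13 to 17 had member sums of 19736, 20600, 19883, 18732 and 16812 CPM beside proximal tubule sums of 11426, 12493, 10493, 6842 and 7179 CPM. Replicates 16 and 17 were lowest in both. In the RC/- D53 group, replicate 25 was lowest in both. However, replicate 27 there had the highest member sum (26595 CPM) beside a proximal tubule sum of 19042 CPM, the next to lowest. The edited cystic groups, D18 and D53, had proximal tubule sums of 22544 to 30282 and 18638 to 21944 CPM. The part of cell composition in the members' differences was not tested.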

How the data were processed

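Raw read counts per gene were deposited by the authors for all 24 libraries. Per their methods and the labels, reads were trimmed with Trim Galore 0.6.3, aligned to GRCm38 with STAR 2.5.3a and counted by STAR on Ensembl gene models. The strand column was not given in the sources used here. From these counts, log2 CPM values were computed on total counts, adding a prior count of 2. Testing in limma 3.58.1 (trend on expression, group means over all libraries) took the 22570 genes averaging -3 or more on that scale, with Benjamini-Hochberg adjustment over them. Fold changes of low genes are shrunk by the prior count. The fit was tested on simulated data. Gene positions and transcript lengths came from GENCODE on GRCm38, promoters from RefSeq.

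Members and lists were chosen with earlier results of these data known. Named members were the core subunits, per complex the 2 lowest and the highest difference in RC/- against RC/+, isoform sets, and in other comparisons up to 5 called members with the largest change; Ndufa4 and Ndufa4l2 were counted in complex IV. The 39 replicate pairs differed beyond sampling noise (chi-square per degree of freedom from 8.45). edgeR 4.0.16, DESeq2 1.42.0, other scalings, filters and covariates were alternatives. Values of some single genes are not reported here.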

Additional observations from a re-analysis of the deposited data

Results flagged for a closer look

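Within the groups of 5, a library stood apart from the other 4 (Dixon's test at the 95% level) in 6 of 120 checks, close to the 5% that chance gives. In RC/- replicate 17, Ndufs8 was at 124 CPM (others 147 to 155 CPM) and summed complex I was at 3932 CPM (others 4575 to 4781 CPM). Cox6a1 was at 640.4 CPM in RC/- D18 replicate 20 (others 721 to 745 CPM). In the RC/- D53 group, Ndufs3 was at 169.8 CPM in replicate 25 (others 194 to 202 CPM), Ndufa4l2 at 11.97 CPM in replicate 24 (others 16.5 to 17.6 CPM), and Cox8a at 594 CPM in replicate 27 (others 469 to 497 CPM).

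The cystic difference itself differed between lines by the interaction term in limma. For the D18 line minus the unedited line 37 members passed, with log2 values of 0.82 for Ndufs1, 0.77 for Sdhb, 0.68 for Uqcrc2, 0.62 for Uqcrfs1 and 0.60 for Uqcrc1. For the D53 line minus the unedited line 41 members passed, with 0.71 for Sdhb, 0.60 for Uqcrc2, 0.60 for Ndufs1, 0.58 for Uqcrc1 and 0.56 for Atp5g3.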

How the results depend on the processing

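Of 350 member counts under 11 alternatives and 24 fits without 1 library, 345 were within 1.5 times the reported count. The 350 include comparisons with a reported count of 0, where nearly every fit also gave 0. The limit also passes a move from 63 to 72 members, as with TMM factors in RC/- against RC/+. With replicates 20 to 27 as a covariate, 34 members changed in RC/- D53 against RC/-, 7 in the D53 minus unedited contrast and 2 in RC/- D53 against RC/+ D53 (Ndufs1 and Uqcrc2, seen after the fit). In that last comparison 1 member (Ndufs1) was called with only its own groups and 1 (Ndufs1) by DESeq2. The cause was not tested, although every RC/- D53 library is among those replicates. Without 1 library the counts were 60 to 64 for RC/- against RC/+, 54 to 65 for RC/- D18 against RC/-, 58 to 65 for RC/- D53 against RC/-, 29 to 40 and 31 to 43 for the D18 and D53 contrasts of differences, and 0 elsewhere. TMM factors moved the members' median from -0.41 to -0.55 in RC/- against RC/+, and the calls over all genes from 5753 higher and 2744 lower to 3844 and 3896. A fat marker covariate, chosen after seeing the data, changed no count by more than 1.5 times.

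Of 3808 values of named members, 45 lost and 4 gained a call. The sign changed in 30, of which 0 had been called. Atp5g2 in RC/- D18 against RC/- was at 0.014 (DESeq2), 0.017 (DESeq2 size factors), 0.022 (TMM) and 0.018 (edgeR), and Cox7a2l in RC/- D53 against RC/- at 0.033, 0.037, 0.049 and 0.041 likewise. With replicates 20 to 27 as a covariate, Cox7a1 was at -0.22 and -0.35 and Cox8b at -1.27 and -2.29 in RC/- D18 and RC/- D53 against RC/-. Without 1 library, values ranged across 0 for members that had not been called. In RC/- against RC/+ they ran from -0.066 to 0.053 for Ndufa11, -0.069 to 0.022 for Cox7a2l and -0.114 to 0.104 for Cox6b2. In RC/- D18 against RC/- they ran from -0.041 to 0.078 for Ndufa11, -0.054 to 1.97 for Cox8b and -0.035 to 0.387 for Cox7a1. In RC/- D53 against RC/- they ran from -0.011 to 0.167 for Ndufa11, -0.027 to 0.032 for Atp5g2 and -0.054 to 0.084 for Cox6b2. No paired analysis was possible because the groups share no replicate numbers. The members' counts were as low as 6 in a library (Cox8b), where counting error is large.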
